A study of Mus musculus with 18 samples.

Results

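Mitochondria make only a few of their own proteins, so nearly all mitochondrial proteins are translated in the cytosol and threaded through membrane translocases, and the organelles themselves fuse, divide and move. Messenger RNA for the genes of this import and dynamics machinery was compared between left and right atria of mice with wild-type or altered Zfhx3. The Zfhx3 protein is a large transcription factor with zinc fingers and homeodomains, and its human gene lies at a locus tied to atrial fibrillation. The group was defined by name: every protein-coding gene of the count table whose symbol starts with Timm or Tomm, plus Mfn1, Mfn2, Opa1, Oma1, Dnm1l, Fis1, Mff, Rhot1, Rhot2, Immt, Chchd3 and Samm50. This gave 38 genes of the 56691 gene IDs in the table. By role they were 10 genes of the outer membrane translocase TOM and its helpers, 6 of the inner membrane translocase TIM23, 9 of the carrier translocase TIM22 and the small TIM chaperones, and Timmdc1, which shares the name but is known as an assembly factor of respiratory complex I. The remaining genes were 3 of outer membrane assembly and cristae junctions, 4 of fusion, 3 of fission and 2 of transport along microtubules. Tomm6os, an antisense RNA, was not counted as a member.

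As background, a protein bound for the mitochondrial matrix meets the receptors of TOM, passes the Tomm40 pore, and is drawn through TIM23 by a motor anchored at Timm44. Carrier proteins of the inner membrane are instead escorted by hexamers of small TIM proteins to TIM22. Mitofusins and Opa1 join the outer and inner membranes of neighbouring mitochondria, and Dnm1l divides them. In cardiomyocytes mitochondria fill much of the cell, and mitofusin 2 also holds them close to the sarcoplasmic reticulum.

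The labels give 3 genotypes, WT, Zfhx3 Het and Zfhx3 KO, with 3 animals each, and 1 left atrium (LA) and 1 right atrium (RA) library per animal, with no treatment. Neither the allele, nor the cells in which it acts, nor age, sex, strain or batch is given in the sources used here. The count columns of WT RA replicates 1 and 2 were the same for every gene, so they entered once, as WT RA replicate 1, and their animal is unknown. This left 17 libraries, with n = 2 in WT RA and n = 3 in each other group. Library totals ran from 18000583 to 33483085 counts.

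Some facts of all libraries touch every result below. Zfhx3 itself was at 14.9 to 18.03 CPM (the count scaled to a fixed library size, with TMM factors) over the KO libraries against 13.9 to 20.4 in WT, so the level over the whole gene did not separate the groups, and since the altered part is not named it does not check the labels. WT, Het and KO therefore mean the libraries so labelled. Xist was at 0.812 to 1.103 CPM in every WT library and at 576 to 706 in every Het library, KO replicate 1 was like Het, and KO replicates 2 and 3 were like WT. Sex and genotype thus cannot be told apart between Het and WT. Transcripts of the mitochondrial genome took 24.1 to 26.7% of the counts in WT LA and 18.02 to 22.3% elsewhere, and the TMM scaling factors were 0.858 to 0.905 in WT LA and 0.964 to 1.097 elsewhere. The 16 cardiomyocyte markers, none of them at 0, summed to 92630 to 108400 CPM in WT LA, 84440 to 91190 in KO LA and 80580 to 86650 in Het LA. They summed to 82880 and 87740 CPM in WT RA, 75560 to 81200 in KO RA and 72280 to 77020 in Het RA. WT LA replicate 3 stood apart with the 12 fibroblast markers summing to 1561 CPM (3352 and 3996 in WT LA replicates 1 and 2) and the 11 macrophage markers to 95.8 CPM (397 and 436). Fibroblast markers summed to 3797 to 5670 CPM in KO LA, with 1 of 12 called higher than WT, and to 4885 to 6070 in Het LA, with 2 of 12. Macrophage markers summed to 389.5 to 401 CPM in KO LA and 403 to 523 in Het LA, with 0 of 11 called in either. Endothelial markers summed to 1203 to 1915 CPM in WT LA, 1788 to 2007 in KO LA and 1972 to 2579 in Het LA, with 2 of 11 higher in KO and 1 in Het. Nerve and Schwann cell markers summed to 8.71 to 11.2 CPM in WT LA and 13.3 to 16.8 in KO LA, where 2 of the 4 tested were higher, and to 11.97 to 15.04 in Het LA, where 0 were. The part of these differences in the results was not tested. In bulk tissue, fewer cells of a type and less RNA per cell cannot be told apart.

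Of the 38 genes, 35 passed the filter on low counts and were tested. The others were near 0: Tomm20l had 13 counts over all 17 libraries, Timm8a2 had 11 and Tomm6, a small TOM subunit, had 4. In the annotation 76.0% of the exon bases of Tomm6 are shared on the same strand with Gm21981, which had 22 counts, so the counts do not measure Tomm6 well. Levels of different genes were compared as CPM per kb of annotated exon length. That length joins all annotated exons of a gene (518 bases for Timm8b, 11353 for Immt) and can exceed that of the transcript present. The order of genes thus depends on the annotation. On that scale Mfn2, the mitofusin, was highest, with a median of 143 CPM per kb and a range of 117 to 173. Chchd3, a subunit of the cristae junction complex MICOS, followed at 78.1 CPM per kb (66.0 to 103). Timm8b, a small TIM, stood at 55.7 CPM per kb (43.1 to 76.8), Mfn1 at 52.9 (44.4 to 70.1) and Dnm1l, the fission dynamin, at 41.0 (33.9 to 46.8). The ranges of Mfn1 and Dnm1l overlapped, as did those of Timm8b and Mfn1. Tomm7, Immt, Fis1, Opa1 and Tomm22 came next, with medians of 25.2 to 39.2 CPM per kb. At the low end, Tomm40l had a median of 2.08 CPM per kb, and Timm10b and Timm8a1 had 1.24 each. The pore subunit Tomm40 lay at 4.96 CPM per kb and Tomm20 at 6.55, below the small subunits Tomm7 at 39.2 and Tomm5 at 18.6.

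**Figure D1:**
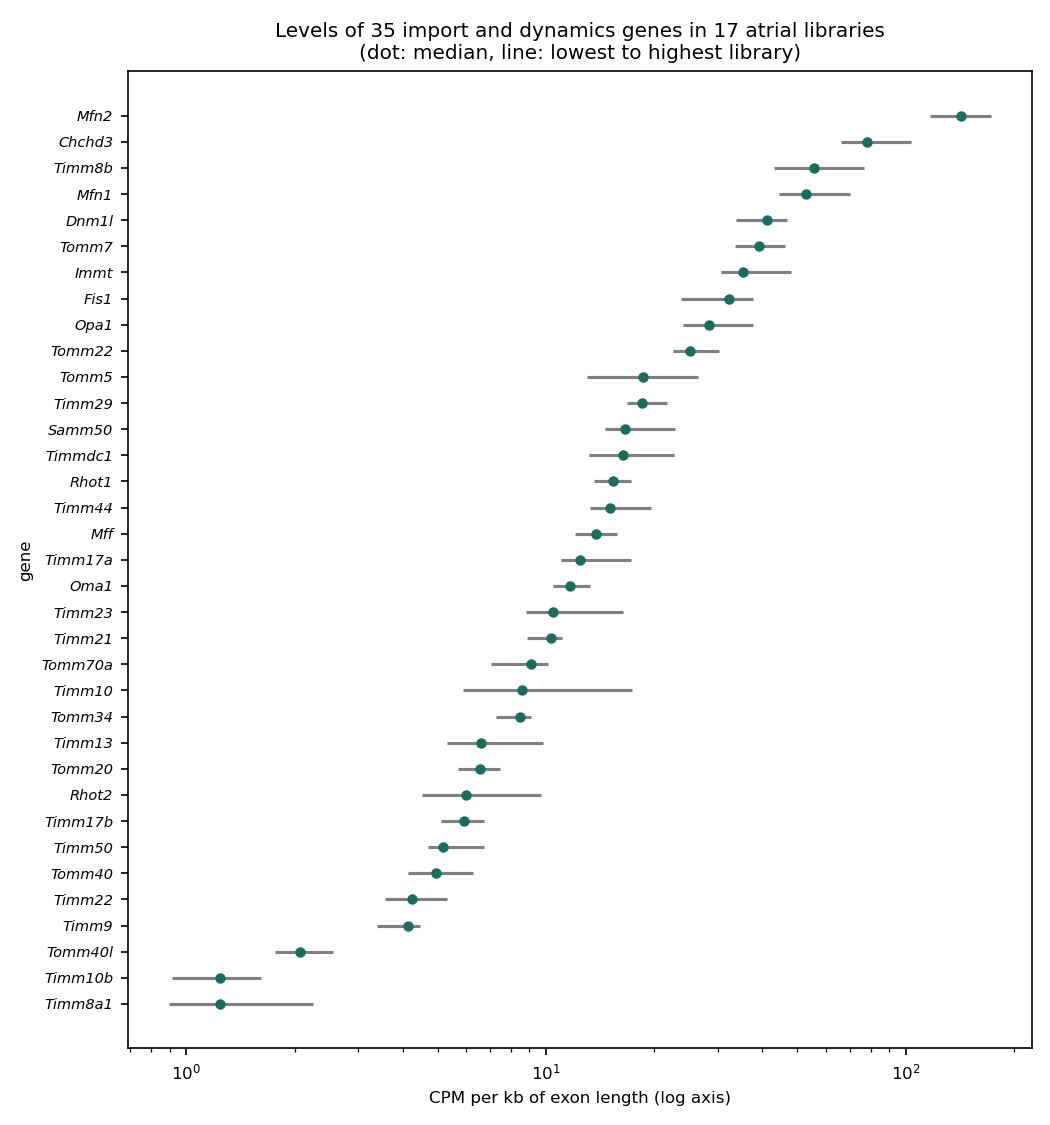
Level of each of the 35 tested genes in CPM per kb of exon length (log axis), with the dot at the median and the line from the lowest to the highest of 17 libraries. Mfn2 stands at a median of 143 CPM per kb, and Timm10b and Timm8a1 at 1.24.

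Within a gene the 17 libraries lay close together. The highest library was 1.254 times the lowest for Tomm34 and 1.255 times for Timm21, and the widest spreads were 2.95-fold for Timm10, 2.52-fold for Timm8a1, 2.14-fold for Rhot2 and 2.03-fold for Tomm5. Summed over the members, the level was 3689 to 4087 CPM in WT LA, 3067 to 3294 in Het LA and 3179 to 3517 in KO LA. In RA the sum was 3271 and 3440 CPM in WT, 2922 to 3094 in Het and 3023 to 3243 in KO. Each WT LA library was thus above all other libraries. As a share of the deposited counts, without TMM scaling, the members took 0.334 to 0.354% in WT LA, 0.324 to 0.337% in Het LA and 0.326 to 0.349% in KO LA, and these ranges overlapped.

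**Figure D2:**
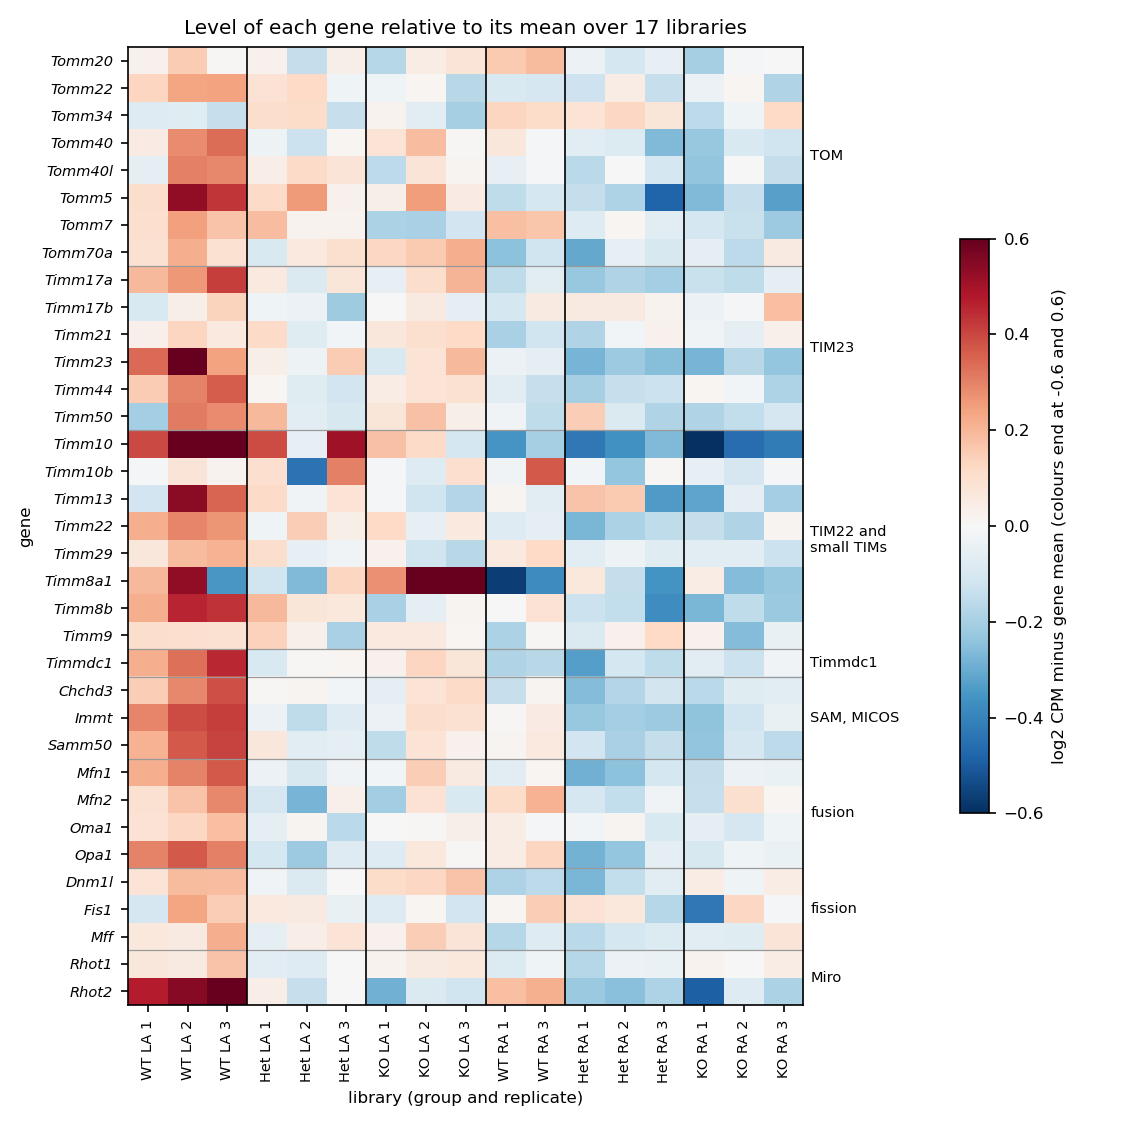
TMM-scaled log2 CPM of each tested gene minus its mean over 17 libraries, with genes in rows by role and libraries in columns by group and replicate. The 3 WT LA columns are red for most genes, most strongly for Timm10 and Rhot2, and the RA columns are mostly blue.

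Start site sequences are shown for 5 of the genes that were lower in KO than in WT left atria: Rhot2, which changed most, and the 4 whose stretch holds a match to one of the motifs searched. Of the 8 such genes 7 had a promoter sequence to search, and Tomm7 had none. The stretches are from RefSeq on GRCm38.p6, 130 bases before and 30 from the annotated start, 5′ to 3′ on the gene's strand, and capitals mark motif matches. The stretch of Rhot2 is chr17:25844496-25844655 on the minus strand. The others are on the plus strand, Immt at chr6:71831190-71831349, Opa1 at chr16:29579204-29579363, Timm8b at chr9:50603771-50603930 and Timm10 at chr2:84826891-84827050.
Rhot2: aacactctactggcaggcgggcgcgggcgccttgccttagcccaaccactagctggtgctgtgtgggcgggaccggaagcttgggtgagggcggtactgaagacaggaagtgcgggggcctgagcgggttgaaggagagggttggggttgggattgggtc
Immt: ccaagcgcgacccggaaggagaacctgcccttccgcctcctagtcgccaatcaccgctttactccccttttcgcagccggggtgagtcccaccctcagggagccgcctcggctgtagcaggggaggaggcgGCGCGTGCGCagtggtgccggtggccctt
Opa1: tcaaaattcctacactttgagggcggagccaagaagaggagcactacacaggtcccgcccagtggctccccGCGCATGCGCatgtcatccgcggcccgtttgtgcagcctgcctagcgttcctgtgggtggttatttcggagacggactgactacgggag
Timm8b: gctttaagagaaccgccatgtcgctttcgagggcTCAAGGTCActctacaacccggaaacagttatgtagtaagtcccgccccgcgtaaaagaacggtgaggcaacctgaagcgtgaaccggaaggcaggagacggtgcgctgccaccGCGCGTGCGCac
Timm10: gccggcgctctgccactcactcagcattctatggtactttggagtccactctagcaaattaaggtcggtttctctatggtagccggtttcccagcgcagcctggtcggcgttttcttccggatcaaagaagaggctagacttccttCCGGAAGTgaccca
The letters searched, on both strands, were GCGCA followed by any base and GCGC for NRF1, ACTTCCGG for GABP and other ETS factors, TCAAGGTCA for ERR, AAGATGGC for YY1 and CACGTG for the E-box, and none of these overlapped another in the stretches shown. Immt, Opa1 and Timm8b hold an NRF1 match, at base 2 from the start, 59 bases before it and at base 19 from it. Timm8b also holds an ERR match 96 bases before the start, and Timm10 an ETS match at base 17. The Rhot2 stretch has none of these letters. Over the full windows of 300 bases, the NRF1 letters stood in 5 of the 35 members with a window (14.3%) against 5.19% of 27025 genes. These 35 include the untested Tomm6, Tomm20l and Timm8a2 and are not the 35 tested genes. ETS letters stood in 9 (25.7%) against 4.31%, the E-box in 6 (17.1%) against 8.09%, ERR in 1 (2.90%) against 0.466% and YY1 in 1 against 3.19%. A match describes the letters and shows neither binding nor a cause.

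The design asks which genes differ with the Zfhx3 genotype in each atrium. In the left atrium 8 members were lower in KO than in WT and none was higher: Rhot2, Timm8b, Tomm7, Opa1, Immt, Samm50, Timm10 and Tomm22 (edgeR quasi-likelihood test, Benjamini-Hochberg adjusted p under 0.05, after a filter on low counts). Called refers to this test throughout, and other tools are named where they are used. That is 22.9% of the 35 tested, where 7.81% of 16974 genes were called, 4.39% lower and 3.42% higher. The median log2 fold change was -0.21 over the 35 genes and -0.0016 over all genes, and 31 of the 35 were below 0. In Het against WT left atria 8 members were also lower and none higher: Rhot2, Opa1, Immt, Mfn1, Timm44, Timmdc1, Samm50 and Chchd3. This again is 22.9%, where 9.4% of all genes were called, 5.38% lower and 4.02% higher, with a median of -0.22 against -0.0025 and 34 of 35 below 0. Immt, Opa1, Rhot2 and Samm50 were lower in both comparisons, and 12 members in at least 1, but both comparisons use the same WT libraries. The libraries of the groups did not overlap for 18 of 35 members in KO and for 18 in Het, where 30% and 32.3% of all genes did not.

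**Figure D3:**
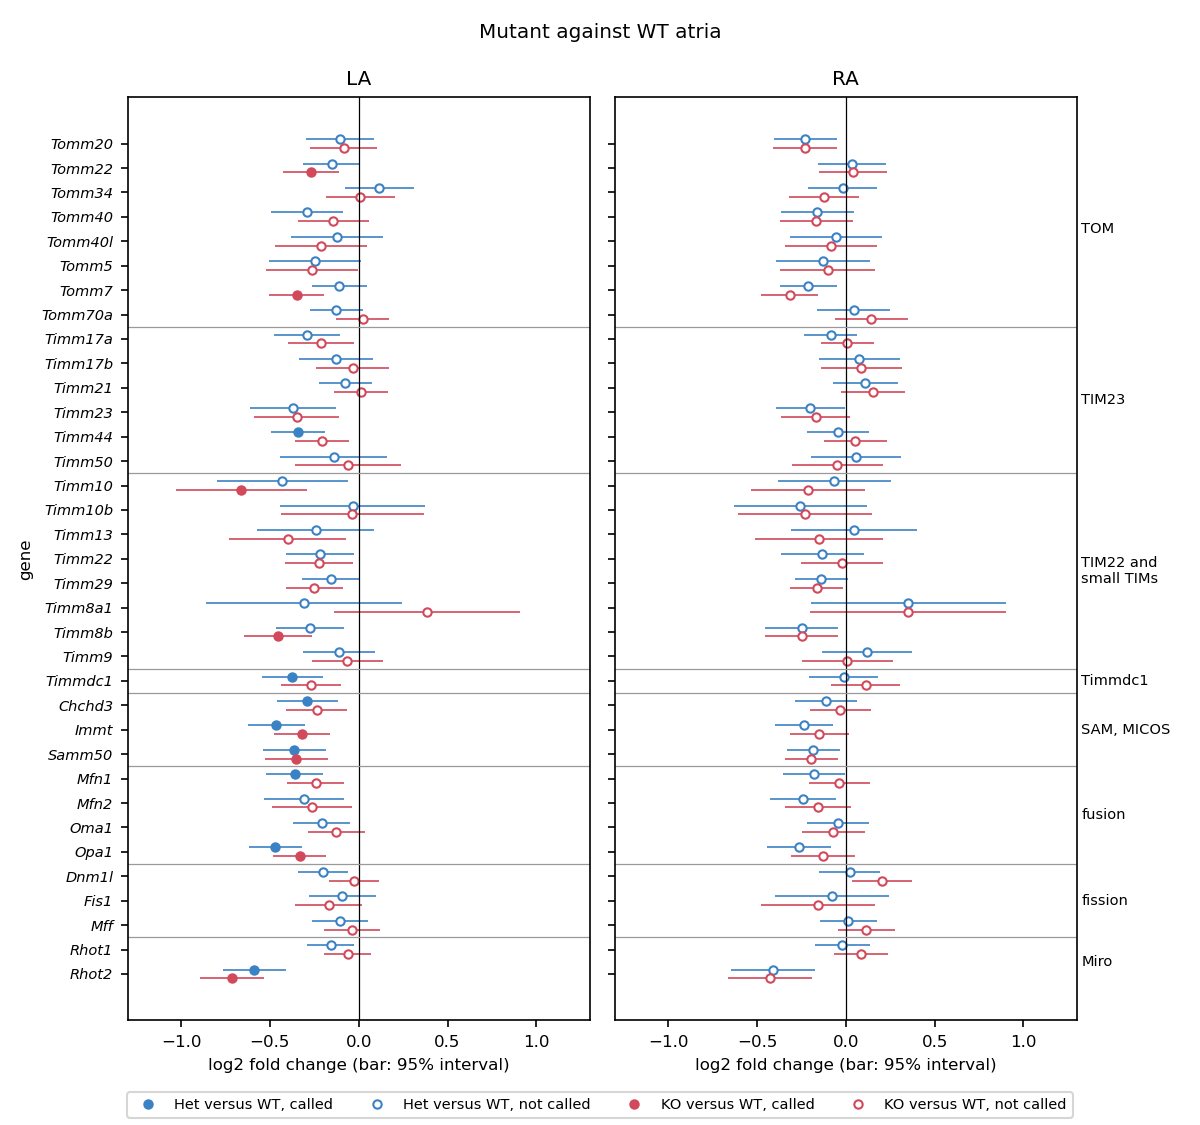
Log2 fold change of each tested gene in Het (blue) and KO (red) against WT, left atrium on the left and right atrium on the right, with 95% intervals and filled points for called genes. With TMM scaling most left atrial points lie below 0, with Rhot2 at -0.71 in KO and -0.59 in Het, and no point is filled in the right atrium.

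Of the 35 members Rhot2, one of the pair of transport genes, had the largest change in both left atrial comparisons. Rhot2 (Miro2), a calcium-binding GTPase of the outer membrane that ties mitochondria to motor adaptors, was at 39.1, 41.3 and 42.98 CPM in the WT left atria, 29, 25.6 and 28.2 in Het and 23.1, 26.5 and 25.99 in KO. Every Het and KO library was below every WT library, and Het and KO overlapped. The change was called in KO (log2 fold change -0.71, SE 0.08, edgeR adjusted p = 0.00342) and in Het (log2 fold change -0.59, SE 0.08, edgeR adjusted p = 0.00556). In the right atria Rhot2 was at 32.03 and 32.7 CPM in WT, against 24.2, 23.7 and 24.8 in Het and 20.1, 26.8 and 24.7 in KO. The mutant libraries were again all below WT, though the difference did not pass the threshold in KO (log2 fold change -0.43, SE 0.11, edgeR adjusted p = 0.107) or in Het (log2 fold change -0.41, SE 0.11, edgeR adjusted p = 0.114). Its paralogue Rhot1 (Miro1) was at 119, 118 and 128 CPM in WT LA, 109, 108 and 114 in Het and 115, 118 and 119 in KO, was not called in any comparison and overlapped between KO and WT. In the annotation 29.4% of the exon bases of Rhot2 are shared on the same strand with Gm20683, which had 1 count, and 1.8% with Wdr90.

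Among the fusion genes Opa1, the dynamin-like GTPase of inner membrane fusion and cristae shape, was at 283, 296 and 284 CPM in WT left atria, against 213, 198 and 218 in Het and 218, 240.2 and 231 in KO. All mutant libraries were below all WT libraries. Opa1 was called lower in KO (log2 fold change -0.33, SE 0.07, edgeR adjusted p = 0.0206) and in Het (log2 fold change -0.47, SE 0.07, edgeR adjusted p = 0.00593). Mfn1, an outer membrane mitofusin, was at 386, 407 and 428 CPM in WT, against 324, 310.1 and 327 in Het and 328, 368 and 344 in KO. No mutant library overlapped WT, and the call was made in Het (log2 fold change -0.36, SE 0.07, edgeR adjusted p = 0.0159) but not in KO (log2 fold change -0.24, SE 0.07, edgeR adjusted p = 0.0636). DESeq2 called Mfn1 lower in KO as well. Its paralogue Mfn2 was at 783, 828 and 897 CPM in WT, against 686, 607 and 749.8 in Het and 636, 781 and 689 in KO and was not called by edgeR, while DESeq2 in Het and edgeR without the filter in both called it lower. Here too each mutant library was below each WT library, by the narrowest margin in KO replicate 2. Oma1, the protease that cleaves Opa1 under stress, had log2 fold changes of -0.13 in KO and -0.21 in Het and was not called.

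None of the 3 fission genes was called by edgeR in a genotype comparison, and DESeq2 called Dnm1l lower in Het left atria. Dnm1l was at 226, 243 and 242 CPM in WT left atria, against 209.9, 201 and 214 in Het and 229.9, 232 and 240.3 in KO. The KO and WT libraries overlapped, with a log2 fold change of -0.03 and a 95% interval of -0.17 to 0.11, and Het lay below WT (log2 fold change -0.20, SE 0.06, edgeR adjusted p = 0.0695). Fis1 and Mff, outer membrane proteins of which Mff recruits Dnm1l, had log2 fold changes of -0.17 and -0.04 in KO and -0.09 and -0.11 in Het, with overlapping libraries.

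All 3 genes of outer membrane assembly and cristae junctions were called lower in Het left atria, and Immt and Samm50 also in KO. Immt (Mic60), the core subunit of MICOS, was at 502, 538 and 546 CPM in WT left atria, against 400.2, 369.6 and 389 in Het and 401, 441 and 436 in KO. The 3 groups were ordered without overlap, WT highest and Het lowest. The change was called in Het (log2 fold change -0.47, SE 0.07, edgeR adjusted p = 0.00771) and in KO (log2 fold change -0.32, SE 0.07, edgeR adjusted p = 0.0286). Samm50, which inserts beta-barrel proteins into the outer membrane, was at 131, 146 and 149.5 CPM in WT, against 118, 108 and 108 in Het and 102, 119.6 and 115 in KO. Again no mutant library reached the lowest WT library, and the change was called in KO (log2 fold change -0.35, SE 0.08, edgeR adjusted p = 0.0288) and Het (log2 fold change -0.36, SE 0.08, edgeR adjusted p = 0.0217). Chchd3 (Mic19), a partner of Immt, was at 254, 280.4 and 300.4 CPM in WT, against 230.5, 232 and 227 in Het and 222, 243 and 249 in KO. It was called in Het (log2 fold change -0.29, SE 0.08, edgeR adjusted p = 0.041) and missed the threshold in KO (log2 fold change -0.24, SE 0.08, edgeR adjusted p = 0.0854). DESeq2 called Chchd3 lower in KO as well. No member was called between KO and Het themselves, as given below.

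**Figure D4:**
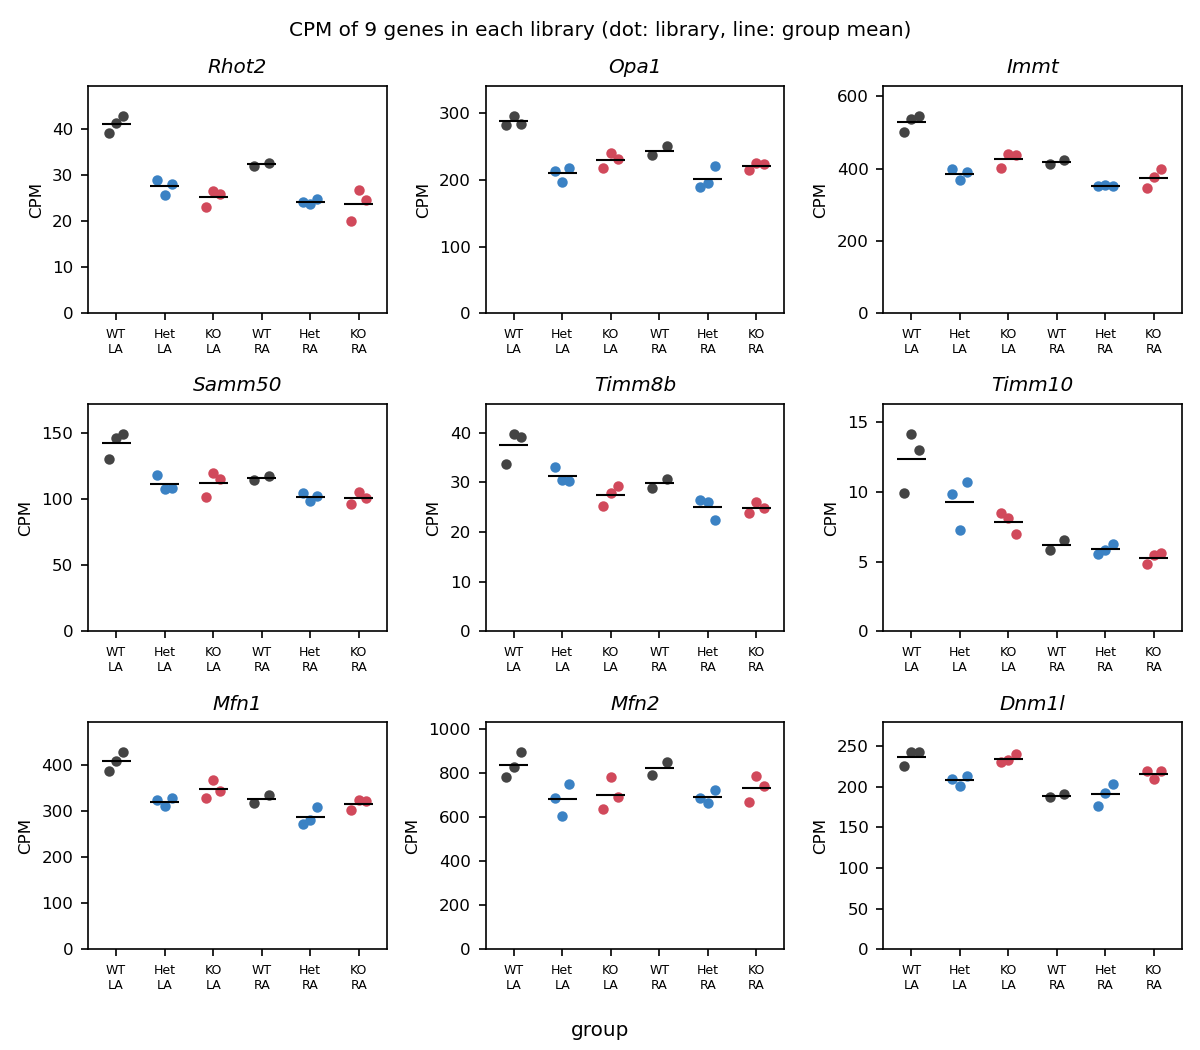
CPM of 9 genes in each library (dots) with the group mean (line), by genotype and atrium. For Rhot2, Opa1, Immt and Samm50 the 3 WT left atria stand above all other libraries, whereas WT and KO left atria overlap for Dnm1l.

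In the carrier pathway the small TIMs Timm8b and Timm10 were lower in KO left atria. Timm8b, an intermembrane space chaperone, was at 33.6, 39.8 and 39.1 CPM in WT, against 33.1, 30.4 and 30.2 in Het and 25.3, 27.9 and 29.3 in KO. Neither mutant group reached the WT range, and the change was called in KO (log2 fold change -0.46, SE 0.09, edgeR adjusted p = 0.0168) but not in Het (log2 fold change -0.27, SE 0.09, edgeR adjusted p = 0.0703). In the annotation 81 of its exon bases (15.6%) overlap Nkapd1 on the opposite strand, which had 9037 counts in all against 12926 for Timm8b. Whether the counting used strand is not given in the sources used here. Timm10, which forms the chaperone hexamer with Timm9, was at 9.903, 14.2 and 12.97 CPM in WT, against 9.86, 7.26 and 10.7 in Het and 8.49, 8.13 and 6.98 in KO. Each KO library was below each WT library, while Het overlapped both. It was called in KO (log2 fold change -0.66, SE 0.17, edgeR adjusted p = 0.0387), a call that held in 4 of 12 alternatives. Its partner Timm9 was at 18.7, 18.6 and 18.5 CPM in WT and 18.1, 18.1 and 17.5 in KO, a log2 fold change of -0.06 that was not called. Timm22, the carrier channel, and Timm29, its partner subunit, had log2 fold changes of -0.22 and -0.25 in KO and -0.22 and -0.16 in Het and were not called. Timm8a1, X-linked and the counterpart of the gene mutated in human deafness-dystonia syndrome, was near 2 CPM, at 2.21, 2.804 and 1.49 in WT and 2.34, 3.21 and 3.16 in KO, and was not called (log2 fold change 0.38, SE 0.24, edgeR adjusted p = 0.348). Timm13 and Timm10b were not called either.

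At the outer membrane, Tomm7 and Tomm22 were lower in KO left atria. Tomm7, a small TOM subunit that is also needed to hold Pink1 at the membrane, was at 46.9, 52.02 and 49.3 CPM in WT, against 49.7, 44.4 and 44.5 in Het and 38.3, 38.2 and 40.5 in KO. The KO libraries lay below both other groups, and Het overlapped WT. It was called in KO (log2 fold change -0.35, SE 0.07, edgeR adjusted p = 0.0193) and had a log2 fold change of -0.11 in Het. Tomm22, the central receptor that organises TOM, was at 46.4, 49.9 and 49.98 CPM in WT, against 45.03, 45.98 and 41.6 in Het and 41.6, 42.7 and 37.8 in KO. WT stood above both, and the call in KO (log2 fold change -0.27, SE 0.07, edgeR adjusted p = 0.0439) held in 3 of 12 alternatives. The other 6 tested TOM genes, the receptors Tomm20 and Tomm70a, the pore Tomm40 and its paralogue Tomm40l, Tomm5 and the cytosolic co-chaperone Tomm34, were not called. Their log2 fold changes ran from -0.27 to 0.02 in KO and from -0.29 to 0.11 in Het.

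Of the 6 TIM23 genes edgeR called Timm44, in Het left atria. There DESeq2, and edgeR without the filter, also called Timm17a and Timm23 lower, and edgeR without the filter called Timm23 lower in KO. Timm44, which tethers the import motor to the channel, was at 62.1, 68.6 and 71.96 CPM in WT left atria, against 56.4, 53.1 and 51.7 in Het and 57.7, 59.2 and 59.6 in KO. All mutant libraries were below WT, and the test gave log2 fold change -0.34, SE 0.07, edgeR adjusted p = 0.0159 in Het and log2 fold change -0.21, SE 0.07, edgeR adjusted p = 0.0877 in KO. Timm23, the channel, was at 24.2, 29.2 and 22.6 CPM in WT, against 19.6, 18.7 and 21.2 in Het and 17.97, 20.3 and 21.9 in KO. It stood below WT in every mutant library with log2 fold changes of -0.37 in Het and -0.35 in KO. Its values are uncertain, since Gm10273 and several pseudogenes are near-identical (Gm10273 at 99.9% identity over 95.6% of the transcript). Timm17a, Timm17b, Timm21 and Timm50 had log2 fold changes of -0.21 to 0.01 in KO and -0.29 to -0.08 in Het. Timmdc1 was at 34.5, 37.3 and 40.6 CPM in WT, against 27.8, 29.8 and 29.9 in Het and 30.2, 32.4 and 31.1 in KO. It was called in Het (log2 fold change -0.37, SE 0.08, edgeR adjusted p = 0.0172) and just missed the threshold in KO (log2 fold change -0.27, SE 0.08, edgeR adjusted p = 0.0558), with no overlap with WT in either. DESeq2 called Timmdc1 lower in KO as well.

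The counts of 8 in each left atrial comparison moved with the libraries and the scaling. DESeq2 called 11 members in KO and 12 in Het, where it called 11.1% and 13.3% of all genes. Without the filter edgeR called 9 and 12 members, where it called 6.98% and 8.28% of all genes. Library totals in place of TMM raised the median of all genes by 0.18 in KO and 0.24 in Het. With them 2 members were called in KO (Rhot2 and Timm8b, both lower) and 4 in Het (Rhot2, Opa1 and Immt lower and Tomm34 higher). Of all genes 17.6% were then called in KO, 1.53% of them lower in KO as a share of all tested. In Het 26.7% were called, with 1.38% of all tested lower. The members' medians then stood at -0.031 and 0.021, below those of all genes. Without WT replicate 2 or without KO replicate 1 only Rhot2 was called in KO, where 1.77% and 1.94% of all genes were. Without KO replicate 3 only Rhot2 and Timm8b were called, where 1.45% of genes were. Without WT replicate 3 or KO replicate 2 there were 4 calls, where 2.76% and 3.76% of genes were called. Without WT replicate 1 there were 12, where 8.48% of genes were called. In Het the count was 3 without WT replicate 3 or Het replicate 2, in both cases Immt, Opa1 and Rhot2. There 3.87% and 1.77% of all genes were called. The Het count was 5 without Het replicate 3, where 3.75% of genes were called, and 11 without WT replicate 1, where 10% were. With Xist as a covariate, which only the KO animals separate from genotype, 3 members were called in KO (Rhot2, Timm8b and Tomm7). In that fit 3.22% of all genes were called in KO. In Het 0 members were called, where 0% of all genes were. The KO count without replicate 1 compares libraries that all lack Xist, and there the median over the members was -0.19. Of the called members, Rhot2 in KO against WT left atria was called under all 12 alternatives. In KO the call of Timm8b held in 10 of 12, those of Opa1 and Tomm7 in 7, Samm50 in 6 and Immt in 5. In Het the calls of Opa1, Immt and Rhot2 held in 11 of 12, Mfn1 in 8 and Timm44 and Timmdc1 in 7. Those of Samm50 and Chchd3 in Het held in 6 and 5.

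In the right atria no member was called between genotypes. In KO against WT the count was 0 of 35, where 0.523% of 17201 genes were called (0.285% lower and 0.238% higher). The members' median log2 fold change was -0.08, and 7 had an unadjusted p under 0.05, as did 2508 of the 17201 genes. DESeq2 called 2, Rhot2 and Tomm7, where it called 2.25% of all genes. The libraries did not overlap for 19 members, where 37% of genes did not. In Het against WT the count was 0, where 0.57% of genes were called (0.314% lower and 0.256% higher). There 10 members had an unadjusted p under 0.05, as did 2458 of the 17201 genes, and the members' median was -0.08. DESeq2 called 0 in Het, where it called 2.36% of all genes, and 15 members did not overlap, where 33.2% of genes did not. The genes with the smallest p were among those called in LA. Tomm7 was at 49.7 and 49.1 CPM in WT RA and 40.7, 39.9 and 37.6 in KO RA without overlap (log2 fold change -0.32, SE 0.07, edgeR adjusted p = 0.083). Opa1 was at 237 and 251 in WT RA and 189, 195 and 221 in Het RA (log2 fold change -0.26, SE 0.08, edgeR adjusted p = 0.175). Dnm1l went the other way, at 187 and 191 CPM in WT RA and 219.8, 209 and 219.7 in KO RA, above WT in each KO library but not called (log2 fold change 0.20, SE 0.08, edgeR adjusted p = 0.259). The difference of the genotype effects between atria was tested directly, and 0 members were called for KO or Het, where 0% of genes were called. In each, 4 members had an unadjusted p under 0.05, where 711 of 18018 genes did for KO and 786 for Het. DESeq2 called 0 members in each. The median over the members was 0.13 for KO and 0.16 for Het, above 0 where the fall was smaller in RA.

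KO and Het were also compared with each other. In LA 0 of 35 members were called, where 0% of genes were, and 0 by DESeq2. An unadjusted p under 0.05 was found for 3 members and for 771 of 16974 genes. In RA the count was 0, where 0% of genes were called, and 0 by DESeq2. There 1 member had an unadjusted p under 0.05, as did 1077 of 17201 genes. The medians over the members were 0.05 in LA and 0.01 in RA, and 10 and 5 members did not overlap, where 12% and 10.4% of genes did not. The intervals are wide enough to leave differences unseen: for Rhot2 in LA the 95% interval of KO minus Het was -0.30 to 0.05 on the log2 scale, and for Opa1 -0.01 to 0.29.

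The right atrium was next set against the left within each genotype. In WT, 17 of 35 members were lower in RA and none was higher (48.6%, where 11.9% of 18018 genes were called, 6.56% lower and 5.31% higher). The median log2 fold change was -0.29 over the members and 0.01 over all genes, and 25 of 35 did not overlap, where 41.6% of all genes did not. By role these were 3 of 8 tested TOM genes (Tomm5, Tomm22, Tomm70a), 3 of 6 TIM23 genes (Timm17a, Timm23, Timm44), 3 of 8 carrier pathway genes (Timm10, Timm8b, Timm22) and Timmdc1. All 3 genes of cristae junctions and outer membrane assembly, Mfn1 of the 4 fusion genes, Dnm1l and Mff of the 3 fission genes and Rhot2 were the others. The count was 10 without WT LA replicate 2, where 9.23% of all genes were called. It was 12 without WT LA replicate 3 and 18 without replicate 1, where 8.73% and 12.6% were. The calls rest on 2 WT RA libraries, replicate 3 and the library shared by replicates 1 and 2. Leaving out either keeps 1 in that group, so those fits are not counted here. With library totals the count was 5, with Timm10, Timm17a and Timmdc1 lower and Tomm20 and Tomm34 higher. There 19.1% of all genes were called, with 3.11% of all tested lower. These WT left atria are the same libraries that the genotype comparisons use.

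Timm10 had the largest fall between the atria in WT and in Het, whereas in KO that of Timm8a1 was larger. Timm10 was at 9.903, 14.2 and 12.97 CPM in WT LA and 5.86 and 6.52 in WT RA, at 9.86, 7.26 and 10.7 in Het LA against 5.55, 5.83 and 6.25 in Het RA, and at 8.49, 8.13 and 6.98 in KO LA against 4.805, 5.45 and 5.59 in KO RA. Within each genotype every RA library was below every LA library. The fall was called in WT (log2 fold change -0.998, SE 0.18, edgeR adjusted p = 0.00127), in Het (log2 fold change -0.65, SE 0.15, edgeR adjusted p = 0.0116) and in KO (log2 fold change -0.57, SE 0.15, edgeR adjusted p = 0.0272). Tomm5, a small TOM subunit, was at 17.04, 22.9 and 21.3 CPM in WT LA and 14.2 and 14.7 in WT RA, and at 17.1, 18.9 and 16.1 in Het LA against 14.3, 13.9 and 11.3 in Het RA. Neither pair of groups overlapped, and both were called (log2 fold change -0.50, SE 0.13, edgeR adjusted p = 0.0195 in WT, and log2 fold change -0.40, SE 0.12, edgeR adjusted p = 0.0394 in Het). It was at 16.2, 18.8 and 16.4 CPM in KO LA against 13.1, 14.3 and 12.6 in KO RA without overlap and was not called (log2 fold change -0.36, SE 0.12, edgeR adjusted p = 0.0671). Timm8b was called in WT (log2 fold change -0.33, SE 0.10, edgeR adjusted p = 0.0317) and Het (log2 fold change -0.33, SE 0.09, edgeR adjusted p = 0.0235), with 28.9 and 30.7 CPM in WT RA and 26.4, 26.1 and 22.3 in Het RA.

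Further members were lower in the right atrium of WT. Timmdc1 was at 26.1 and 26.4 CPM in WT RA, below all WT LA libraries (log2 fold change -0.51, SE 0.08, edgeR adjusted p = 0.000754). Timm23 was at 18.7 and 18.4 CPM (log2 fold change -0.45, SE 0.11, edgeR adjusted p = 0.00996) and Timm17a, another channel subunit, at 117, 122 and 136 in WT LA and 91.7 and 97.3 in WT RA (log2 fold change -0.40, SE 0.08, edgeR adjusted p = 0.00366). Timm44 was at 53.3 and 50.7 in WT RA (log2 fold change -0.38, SE 0.08, edgeR adjusted p = 0.00348). These import genes did not overlap between WT atria. Dnm1l fell from the LA values above to 187 and 191 CPM (log2 fold change -0.33, SE 0.07, edgeR adjusted p = 0.00523), whereas Mfn2 was at 793 and 851 CPM in WT RA, within the LA range (log2 fold change -0.02, SE 0.10, edgeR adjusted p = 0.92). Mfn1 was at 318 and 334 CPM (log2 fold change -0.32, SE 0.08, edgeR adjusted p = 0.0102) and Immt at 412 and 424 (log2 fold change -0.34, SE 0.07, edgeR adjusted p = 0.00564). The outer membrane receptor Tomm70a was at 91.1, 99.3 and 90.9 CPM in WT LA and 71.95 and 78.4 in WT RA, and the carrier channel Timm22 at 16, 16.9 and 16.5 in WT LA against 13.02 and 13.3 in WT RA. The Dnm1l receptor Mff was at 138, 137 and 154 in WT LA and 117 and 125 in WT RA. In WT RA Chchd3 stood at 208 and 232 CPM, Samm50 at 114 and 118 and Tomm22 at 39.7 and 39.4. Each of these lay below all WT LA libraries, and with Rhot2 their log2 fold changes ran from -0.34 to -0.24. Tomm34 lay above LA without overlap, at 27.6 and 27.3 CPM in WT RA against 23.9, 24.1 and 22.9 in WT LA, but was not called, with a log2 fold change of 0.21, nor was Tomm20, with 0.11.

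**Figure D5:**
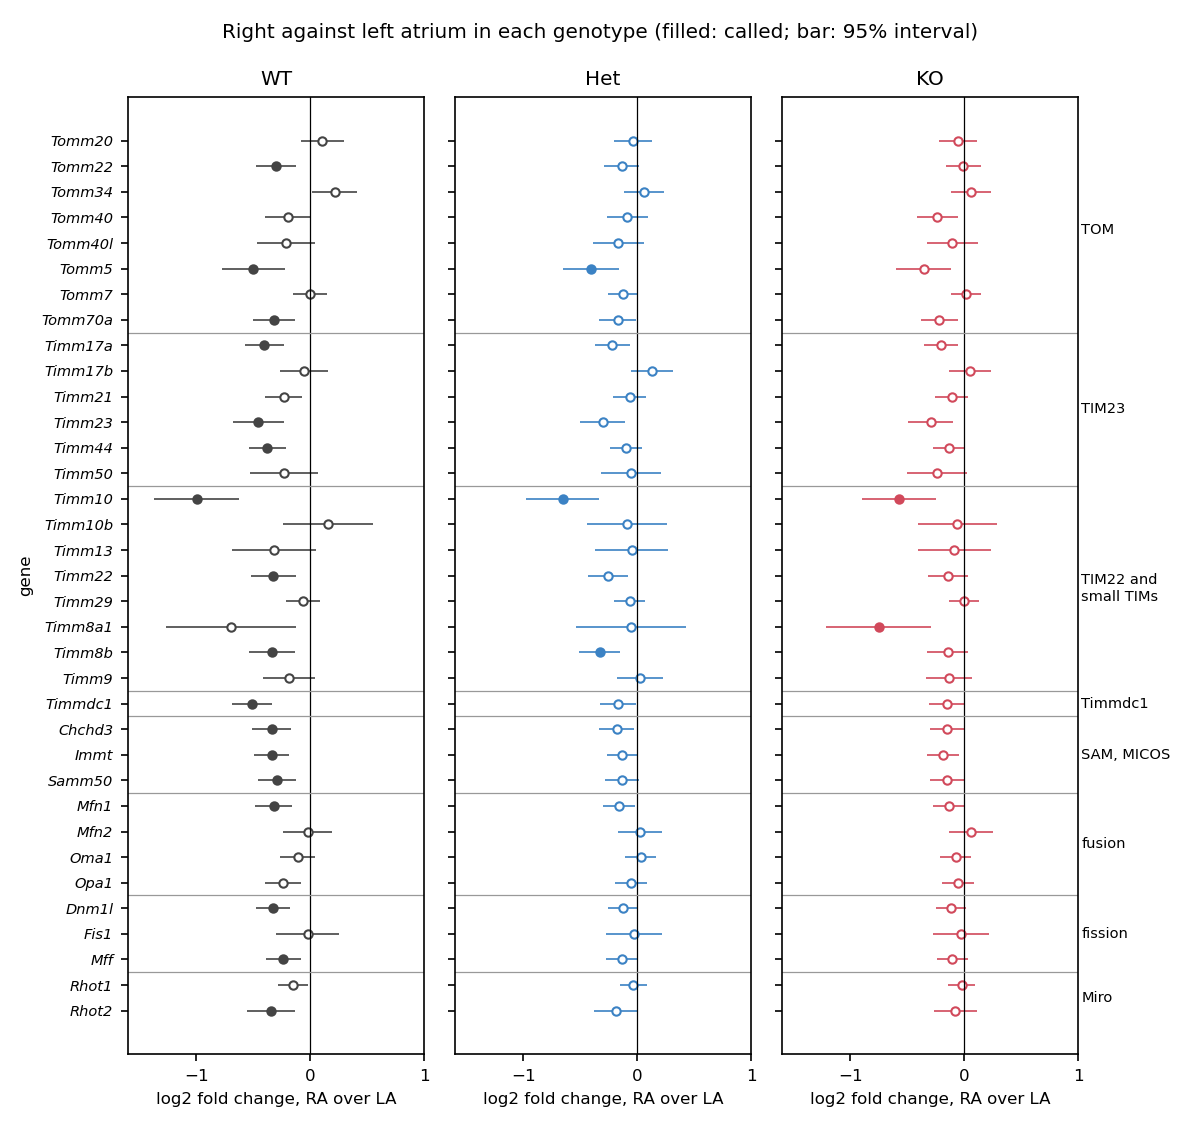
Log2 fold change of RA over LA for each tested gene in WT, Het and KO, with 95% intervals and filled points for called genes. In WT 17 points are filled, all below 0, against 3 in Het and 2 in KO, and Timm10 is filled in each genotype. The fit shown has no animal block. With that block 17 or 23 were called in WT, 9 or 8 in Het and 7 or 9 in KO. No member was called in the interaction.

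In Het 3 members were lower in RA than in LA (Timm10, Tomm5 and Timm8b), where 7.69% of genes were called, 4.37% lower and 3.32% higher. In KO 2 were (Timm10 and Timm8a1), where 8.35% were called, 4.68% lower and 3.66% higher. These are 8.57 and 5.71% of the members tested. The medians over the members were -0.12 in both, and 17 members in Het and 16 in KO did not overlap, where 24.8% and 26.4% of genes did not. Timm8a1 was at 2.34, 3.21 and 3.16 CPM in KO LA and 1.98, 1.59 and 1.63 in KO RA, without overlap (log2 fold change -0.75, SE 0.22, edgeR adjusted p = 0.0418). The left and right atria that share a replicate number are from 1 animal, and with the animal as a block the counts were 17 or 23 in WT, 9 or 8 in Het and 7 or 9 in KO, for the shared library placed with WT replicate 1 or 2. In those fits 18.6 or 21.7% of all genes were called in WT, 16.3 or 15.6% in Het and 15.9 or 15.4% in KO. The blocked calls in both placements included Timm17a, Timm23, Chchd3 and Mfn1 in Het, and Immt, Timm17a, Timm23, Tomm5 and Tomm70a in KO. Without the block, leaving out Het LA replicate 1 gave 0 calls in Het and leaving out Het RA replicate 3 gave 1. In KO the count was 0 without KO RA replicate 1, 2 or 3 or KO LA replicate 2, while dropping KO LA replicate 3 left 1. With 1 library left out, 5.3 to 6.23% of all genes were called in Het and 5.66 to 6.94% in KO. Seen animal by animal, 32 of 35 members were lower in RA in WT replicate 3, 30, 23 and 29 in the Het animals and 32, 28 and 30 in the KO animals. The median difference in log2 CPM was -0.295 in that WT animal, -0.20, -0.055 and -0.115 in Het and -0.09, -0.13 and -0.09 in KO. The difference between genotypes of the atrial contrast is the same contrast as the interaction given above, in which no member was called.

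Paralogue pairs were compared as ratios of CPM per kb. The size of a ratio depends on the annotated exon lengths, while its differences between groups do not. Mfn2 over Mfn1 had a median of 2.61 over the 17 libraries (2.28 to 2.997), Timm17a over Timm17b 2.11 (1.80 to 2.67), Tomm40 over Tomm40l 2.40 (2.02 to 2.84) and Timm8b over Timm8a1 41.4 (23.8 to 71.9). Rhot1 over Rhot2 was 2.52 (1.71 to 3.44). Its log2 ratio was 0.66 higher in KO than in WT LA and 0.43 higher in Het, with exact two-sided permutation p = 0.1 each, the smallest that 3 against 3 allow, and an adjusted p of 0.208 over 25 such tests. The log2 ratio of Timm8b over Timm8a1 differed by -0.90 in KO against WT LA, at the same p. In all 12 of the 25 tests reached that smallest p. No ratio passed the adjusted threshold, which this design cannot reach. In the annotation 64.3% of the exon bases of Tomm40l overlap Nr1i3 on the opposite strand, which had 20 counts in all. Tomm20l, the paralogue of Tomm20, was too low for a ratio.

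Neighbouring steps of the pathway were read from lists of other genes, whose counts stand against 4.39% of all genes lower in KO LA, 5.38% in Het LA and 6.56% in RA of WT. The peptidases and insertases that process imported proteins had 5 of 9 lower in KO left atria and 5 of 9 in Het, with 0 higher. Pmpca, a subunit of the peptidase that removes presequences, was at 104 ± 5.15 CPM (SD, n = 3) in WT LA, 86.8 ± 1.32 in KO (log2 fold change -0.27, SE 0.06, edgeR adjusted p = 0.0227) and 83.6 ± 1.008 in Het (log2 fold change -0.33, SE 0.06, edgeR adjusted p = 0.0109). Mipep, the intermediate peptidase, fell from 70.3 ± 5.13 to 55.6 ± 0.972 CPM in KO (log2 fold change -0.34, SE 0.07, edgeR adjusted p = 0.0165). Of the presequence motor and matrix chaperones 0 of 10 were called in KO and 3 in Het, all lower, among them the motor protein Hspa9 (log2 fold change -0.31, SE 0.07, edgeR adjusted p = 0.0247) and Hspd1 (log2 fold change -0.28, SE 0.06, edgeR adjusted p = 0.0235). Of the intermembrane space relay list 2 of 7 were lower in each, with Chchd10 in both (log2 fold change -0.47, SE 0.10, edgeR adjusted p = 0.0216 in KO). The partners of SAM and MICOS had 0 of 9 called in KO and 2 lower in Het, Mtx2 (log2 fold change -0.33, SE 0.07, edgeR adjusted p = 0.0172) and Apool.

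Regulators of fusion and fission had 3 of 22 lower in KO left atria and 7 of 22 lower in Het, with 0 higher. Mief2, an outer membrane receptor of Dnm1l, was lower in both (log2 fold change -0.48, SE 0.12, edgeR adjusted p = 0.0359 in KO and log2 fold change -0.56, SE 0.12, edgeR adjusted p = 0.0191 in Het), as was Afg3l2, an inner membrane protease. Mtfp1, an inner membrane protein linked to fission, fell from 47.4 ± 1.32 to 35.7 ± 1.67 CPM in Het (log2 fold change -0.42, SE 0.07, edgeR adjusted p = 0.00942). Of the mitophagy genes 5 of 11 were lower in KO and 4 in Het. The autophagy receptor Optn was lower in both (log2 fold change -0.35, SE 0.07, edgeR adjusted p = 0.018 in KO and log2 fold change -0.40, SE 0.07, edgeR adjusted p = 0.0103 in Het), and Bnip3, an outer membrane receptor, in KO (log2 fold change -0.58, SE 0.12, edgeR adjusted p = 0.0237). Of 20 regulators of mitochondrial biogenesis 1 was called in KO, Pprc1, and it was higher: 15.3 ± 0.270 CPM in WT LA, 23.6 ± 1.71 in KO and 23.6 ± 1.22 in Het (log2 fold change 0.61, SE 0.08, edgeR adjusted p = 0.00647 in KO). Pprc1 encodes a coactivator related to PGC-1. In Het 2 of the 20 were higher and 2 lower. No gene of these 7 lists was called between genotypes in RA.

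Between the WT atria the same lists had 5 of 10 presequence motor genes and chaperones lower in RA, 3 of 9 processing genes, 5 of 9 partners of SAM and MICOS, 3 of 11 mitophagy genes and 0 of 7 relay genes. Regulators of fusion and fission had 7 of 23 lower and 2 higher, and biogenesis regulators 0 of 20 called. Mtfp1 fell to 30.1 ± 2.31 CPM in WT RA (log2 fold change -0.65, SE 0.08, edgeR adjusted p = 5.29e-05) and Hspd1 from 298 ± 4.64 to 220.4 ± 0.498 (log2 fold change -0.43, SE 0.08, edgeR adjusted p = 0.00284). Of the 16 cardiomyocyte markers 6 were lower in RA in each genotype, with medians of -0.27 in WT, -0.27 in Het and -0.295 in KO. Between genotypes 2 were lower in KO LA (Pln and Nppa) and 3 in Het LA (Ckm, Ttn and Pln), and none was higher. Endothelial markers were higher in RA for 2, 1 and 3 of 11 in WT, Het and KO, and nerve and Schwann cell markers for 2, 2 and 1 of the 5 tested. The part of these markers in the members' values was not tested.

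By edgeR, with the filter and no block, 20 of the 35 tested members were called in at least 1 comparison. The 15 called in none were Fis1, Mfn2, Oma1, Rhot1, Timm10b, Timm13, Timm17b, Timm21, Timm29, Timm50, Timm9, Tomm20, Tomm34, Tomm40 and Tomm40l. Of these, 8 were called under at least 1 alternative. Mfn2 was called as given above, and Timm13, Timm21, Timm50, Tomm40 and Tomm40l were lower in WT RA with the animal block and the shared library placed with WT replicate 2. In KO RA Timm50 and Tomm40 were lower in the same fit. Tomm20 and Tomm34 were higher in WT RA with library totals.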

How the data were processed

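Atrial RNA was prepared with the Direct-zol RNA Miniprep and KAPA mRNA HyperPrep kits and sequenced on a NovaSeq, per the labels' protocols. The deposited values were whole-number counts per gene made by the authors. STAR 2.7.9a, DESeq2 1.30.1 and mm10 are named, without a role, in the submitters' processing notes, and the sources used here give no counter, strand setting or annotation release. Library totals set the depth, 18000583 to 33483085 counts.

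Counts were fitted with edgeR 4.0.16 in R 4.3.3 (filterByExpr with a minimum count of 10, TMM, quasi-likelihood test, Benjamini-Hochberg adjustment over all genes tested), with 1 fit for the LA genotypes, 1 for the RA genotypes and 1 for all groups, used for the atrial and interaction contrasts. CPM are TMM-scaled. Gene names and exon lengths came from GENCODE M21, which matched 52073 of the 56691 IDs by base ID, and unmatched IDs held 0.418 to 2.63% of the counts. Promoters came from RefSeq. Near-identical copies were sought with blastn 2.17.0. The steps were tested on simulated data, where a 1.25-fold change was called in 4.48 to 5.97% of cases. A 1.5-fold change was called in 48.3 to 52.7% and a 2-fold change in 85.9 to 87.9%. Small changes thus mostly went uncalled in the simulation. Far fewer genes were changed in each run than were called between left atria or between WT atria. The adjusted threshold was therefore stricter, and the rates do not carry over to those comparisons. Called members were named with their values per library, with both genes of a paralogue pair, other members were given as ranges and counts, and of each other list at most the 2 called genes with the smallest p per comparison were chosen. The members and lists were chosen with earlier results of these data known. Left and right atria of 1 animal share an ID in the titles. Over the 6 Het and KO pairs the deviations from the group means correlated at r = 0.213 to 0.411, against -0.276 to 0.0502 between animals of a genotype. WT is left out, since the animal of 1 RA library is unknown. Nothing else says whether replicates were prepared separately. Alternatives were DESeq2 1.42.0, other scalings, no filter, Xist as a covariate, replicate blocks and each library left out.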

Additional observations from a re-analysis of the deposited data

How the results depend on the processing

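No call of a member turned to the other direction under any alternative run. Members called in KO against WT left atria numbered 2 with library totals and 3 with Xist as a covariate, and from 1 to 12 with 1 library left out. In Het against WT left atria they numbered 4 with library totals and 0 with the covariate, and from 3 to 11 with 1 library left out. Of all genes, library totals called 17.6% in KO and 26.7% in Het, and the covariate fit 3.22% and 0%. With 1 library left out, 1.45 to 8.48% of all genes were called in KO and 1.77 to 10% in Het. In the right atria KO against WT gave 2 with DESeq2 and 1 without the filter, where 2.25% and 2.56% of all genes were called. Het against WT gave 1 without the filter, where 2.69% were. Leaving out a mutant library gave 0 in every case. In those fits only 0.0528 to 0.452% of all genes were called in KO and 0.182 to 0.277% in Het. The fits without a WT RA library keep 1 and are not counted here. RA against LA in WT gave 5 with library totals, where 19.1% of all genes were called. With 1 WT LA library left out it gave from 10 to 18, where 8.73 to 12.6% of all genes were called. In Het and KO the atrial contrast gave 1 each with library totals, where 7.2% and 7.83% of all genes were called. With 1 library left out it gave 0 to 2 in Het and 0 to 3 in KO. There 5.3 to 6.23% and 5.66 to 6.94% of all genes were called. The cause was not tested. With the replicate block on the animal, RA against LA gave 9 and 8 in Het and 7 and 9 in KO for the 2 placings of the shared library. A replicate block on the number gave 6 in KO and 9 in Het left atria, where 6.73% and 9.34% of all genes were called. In the other genotype comparisons this block gave 0, where 0 to 0.884% of all genes were called. KO against Het and both interactions stayed at 0 calls in every alternative run. Depth limits the low members most: Timm8a1 had 905 counts and Timm10b 2008 over all libraries.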
